A study of Homo sapiens with 6 samples.

Results

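To examine the bile acid machinery of HepG2 cells that carried either form of the transcription factor VEZF1, 10 genes of bile acid synthesis, transport and signalling through the bile acid receptor FXR were read from the count table by their symbols. They were listed by function and not by their counts, and they make up 10 of the 59608 genes in the table. The enzymes are CYP7A1, CYP8B1 and CYP27A1, the nuclear receptors and their hormone signal are NR1H4, NR0B2 and FGF19, and the transporters are SLC10A1, ABCB11, SLC51A and SLC51B. HepG2 is an established human liver cancer line. In all 6 libraries the cells had received a lentivirus with a guide RNA against the endogenous VEZF1 gene. The wild-type protein (VEZF1-WT, 3 libraries) or the mutant VEZF1-2A (3 libraries), which has alanine in place of neighbouring serines reported to carry O-GlcNAc, was then put back. Both groups therefore had the same gene targeted, though whether they carry the same edits is not stated. No library of unedited or unrescued cells was included, so the comparison asks whether the exchange of these serines alters the RNA of the bile acid genes. The labels give no time after rescue, no clone and no statement that the libraries came from separate cultures, so the p-values below measure the spread between these libraries, which may be technical.

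Hepatocytes turn cholesterol into bile acids by a classical pathway that starts with CYP7A1, the rate-limiting 7-alpha-hydroxylase, and uses CYP8B1, the 12-alpha-hydroxylase, to make cholic acid. An alternative pathway starts with CYP27A1, the mitochondrial sterol 27-hydroxylase. Bile acids bind FXR (NR1H4), which induces SHP (NR0B2), a repressor of CYP7A1, as well as the export pump BSEP (ABCB11) and both subunits of the basolateral exporter OST (SLC51A and SLC51B), while the ileum releases the hormone FGF19 in response to FXR and NTCP (SLC10A1) takes bile acids up from blood. These are textbook roles and not results of these libraries.

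Levels differed far more between the genes than between the groups. Transcripts of CYP27A1, SLC51B, NR1H4, NR0B2 and SLC51A had 170 to 2388 counts in each library, CYP7A1 and CYP8B1 were near the limit of detection (6 to 28 counts), SLC10A1 and ABCB11 lay at or just above it (0 to 10 counts), and FGF19 had 0 counts in every library. None of the 6 members with enough counts for the test across all genes passed an adjusted p of 0.05 (edgeR's quasi-likelihood fit, Benjamini-Hochberg over 19111 genes, each member at 0.999564), and neither did any other gene (0%). None had an unadjusted p under 0.05 either, against a background of 2.13% of all genes tested (408 genes, of which 159 were higher and 249 lower in VEZF1-WT). The groups overlapped for all 6 tested members and for the 3 others with any count, whereas 7.38% of the genes tested had groups that did not overlap.

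The libraries held 28756765 to 57199396 counts, and the largest was 1.99 times the smallest. In genes with 1 to 10 counts, 81.0% to 83.0% of the values were even, so a low count mostly moved in steps of 2. All 9 hepatocyte markers that were listed exceeded 1 TPM (a transcript share corrected for gene length), and their summed level was 8671 to 10845 TPM in VEZF1-WT and 8242 to 10312 TPM in VEZF1-2A. Of the 5 biliary markers 3 exceeded 1 TPM, namely KRT19 (1257 TPM), SOX9 and EPCAM, while KRT7 and CFTR did not. Of the 5 stellate or fibroblast markers only ACTA2 (26.5 TPM) did. The macrophage marker CD68 (174 TPM) was present, while PTPRC and CD3E stayed at or below 1 TPM. None of the 5 ileal markers exceeded 1 TPM, and SLC10A2 and SI were at 0. VEZF1 itself was at 48.2 ± 9.94 CPM (counts scaled to library size, SD, n = 3) in VEZF1-WT and 44.5 ± 5.06 CPM in VEZF1-2A, a count that does not separate endogenous from re-expressed RNA and so does not check the labels.

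The order of the levels was read in TPM, the mean of the 6 libraries. CYP27A1 stood first at 32.4 TPM (29.9 to 35.3 over libraries), followed by SLC51B at 26.0 TPM (20.5 to 30.9) and NR1H4 at 22.6 TPM (19.0 to 24.96). The ranges of CYP27A1 and SLC51B overlapped, as did those of SLC51B and NR1H4, the former of each pair being higher in 5 of 6 libraries, while the ranges of CYP27A1 and NR1H4 did not overlap. NR0B2 followed at 12.6 TPM (10.97 to 15.1), 1.79 times below NR1H4 with no overlap, and SLC51A at 3.67 TPM (3.16 to 4.02), 3.44 times below NR0B2 and again without overlap. A gap of 10.3 times separated SLC51A from CYP7A1 at 0.355 TPM (0.182 to 0.606). The SLC51A level behind these ratios is uncertain, since some of its exon bases are shared with PCYT1A on the opposite strand, as described below. In this order of the means, CYP7A1, CYP8B1 (0.171 TPM), SLC10A1 (0.0683 TPM) and ABCB11 (0.0578 TPM) overlapped from neighbour to neighbour. Among all 59608 genes ranked by mean TPM, CYP27A1 was number 3217 and ABCB11 number 28790.

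**Figure D1:**
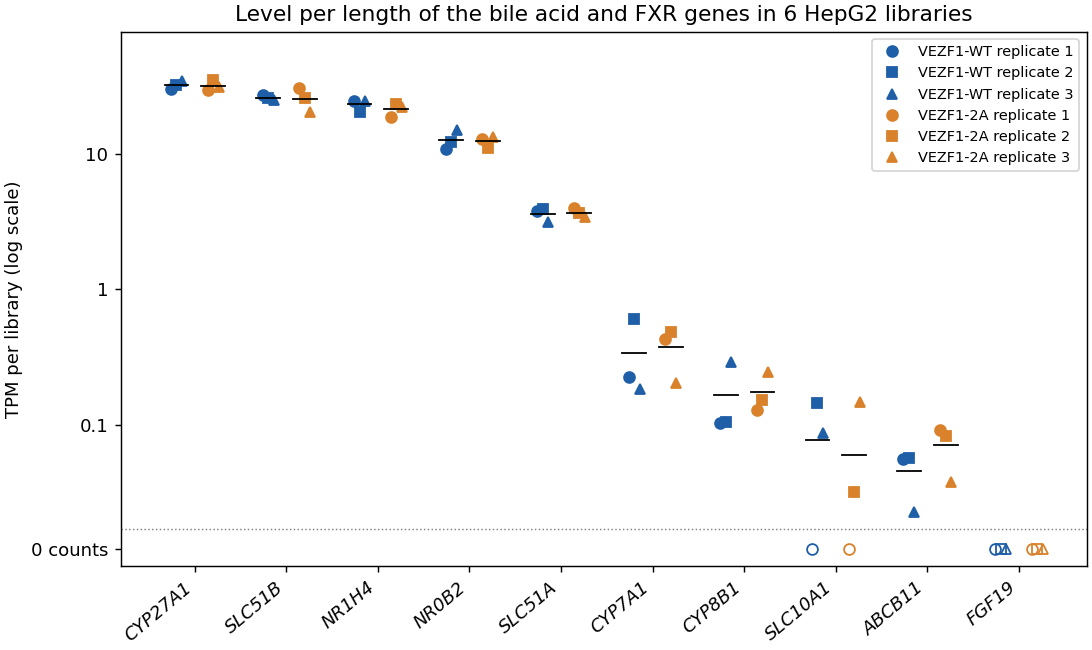
Level of each gene in TPM on a log scale (vertical axis) in each of the 3 VEZF1-WT (blue) and 3 VEZF1-2A (orange) libraries, with bars at the group means and open symbols for libraries with 0 counts. Genes run from CYP27A1 at 32.4 TPM to FGF19 at 0, and within each gene with counts the symbols of the groups overlap.

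The first enzyme of the classical pathway was scarcely detected. CYP7A1 had 12, 24 and 12 counts with VEZF1-WT and 14, 22 and 8 with VEZF1-2A, which is 0.253, 0.673 and 0.213 CPM against 0.480, 0.549 and 0.241 CPM. The highest value was VEZF1-WT replicate 2 and the lowest VEZF1-WT replicate 3, so that the VEZF1-2A values fell entirely within the span of the other group. Its log2 fold change (VEZF1-WT over VEZF1-2A, as throughout) was -0.23 with a standard error of 0.52 (edgeR's quasi-likelihood p = 0.660, exact permutation p = 0.9) with a wide 95% interval of the fold, 0.384 to 1.88. Leaving out VEZF1-WT replicate 2 took the log2 fold change to -0.87 (edgeR, unadjusted p = 0.120) and leaving out VEZF1-WT replicate 3 to 0.076. CYP7A1 lies on GRCh38 chromosome 8, from 58490178 to 58500163.

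CYP8B1 had a lower mean TPM than CYP7A1 but overlapped with it, being lower in 4 of 6 libraries. Its counts were 8, 6 and 28 with VEZF1-WT against 6, 10 and 14 with VEZF1-2A, or 0.169, 0.168 and 0.496 CPM against 0.206, 0.250 and 0.422 CPM. Replicate 3 was the highest library of each group. CYP8B1 (chromosome 3, 42856005 to 42875898, minus strand) did not pass the filter on low counts, and the permutation test of its CPM gave an exact p of 0.8. A stretch of 142 bases, 3.40% of its exon length, is shared with ACKR2 on the opposite strand, which itself had 19 to 48 counts per library. Since the strand setting of the counting is not given in the sources used here, some CYP8B1 reads may belong to ACKR2.

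CYP27A1, which opens the alternative pathway, had the highest mean TPM of the 10 genes, though SLC51B was above it in VEZF1-2A replicate 1. The VEZF1-WT libraries had 1675, 1338 and 2388 counts, or 35.4, 37.5 and 42.3 CPM, and the VEZF1-2A libraries 1010, 1659 and 1289 counts, or 34.6, 41.4 and 38.8 CPM. The group means, 38.4 ± 3.57 and 38.3 ± 3.43 CPM (SD, n = 3), differed by less than the spread within either group. The log2 fold change was 0.00 with a 95% interval of the fold of 0.876 to 1.15 (edgeR p = 0.968, exact permutation p = 1.0), so a difference beyond 1.15-fold lies outside the interval. Within each library the TPM of CYP27A1 was 53.8 to 192 times that of CYP7A1, a ratio that followed the few CYP7A1 counts. The gene spans 218781749 to 218815293 on chromosome 2, plus strand.

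The receptor gene NR1H4 was well covered. The VEZF1-WT libraries had 1672, 1029 and 2079 counts and the others 780, 1352 and 1119, which gave 35.3, 28.9 and 36.9 CPM against 26.7, 33.7 and 33.7 CPM. One library of each group, VEZF1-WT replicate 2 and VEZF1-2A replicate 1, sat below the rest. The log2 fold change was 0.10 (SE 0.11) and had the smallest p among the 6 tested members (edgeR p = 0.384, exact permutation p = 0.5), with a 95% interval of the fold from 0.904 to 1.27. It ranged from 0.00 without VEZF1-2A replicate 1 to 0.20 without VEZF1-WT replicate 2 (edgeR, unadjusted p = 0.0858), the smallest p of a tested member in any setting. NR1H4 spans 100473708 to 100564414 on chromosome 12, plus strand.

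NR0B2, the small partner that FXR induces, had 237, 198 and 404 counts (5.002, 5.55 and 7.16 CPM) in VEZF1-WT and 170, 203 and 213 counts (5.83, 5.07 and 6.42 CPM) in VEZF1-2A. Replicate 3 again gave the highest value of each group. The log2 fold change was 0.04 (SE 0.16, edgeR p = 0.794, exact permutation p = 1.0), with a 95% interval of the fold from 0.811 to 1.31. The ratio of NR1H4 to NR0B2 in TPM was 2.27, 1.67 and 1.65 for VEZF1-WT, against 1.47, 2.14 and 1.69 for VEZF1-2A, and these ranges overlapped as well. NR0B2 spans 26911489 to 26913975 on chromosome 1, minus strand.

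FGF19 was not detected at this depth. A count of 0 allows up to 3 counts, which is 0.0524 to 0.104 CPM in a single library and 0.0124 CPM over the 242175602 counts of all 6. If the steps of 2 mean that 1 fragment gave 2 counts, which was not tested, the limit over all libraries is 0.0248 CPM. The 2 parts of the FGF19 receptor were both present, namely the kinase FGFR4 at 60.9 TPM and the co-receptor KLB at 36.2 TPM. In bulk libraries such as these, fewer cells with a transcript cannot be told apart from less of it per cell.

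**Figure D2:**
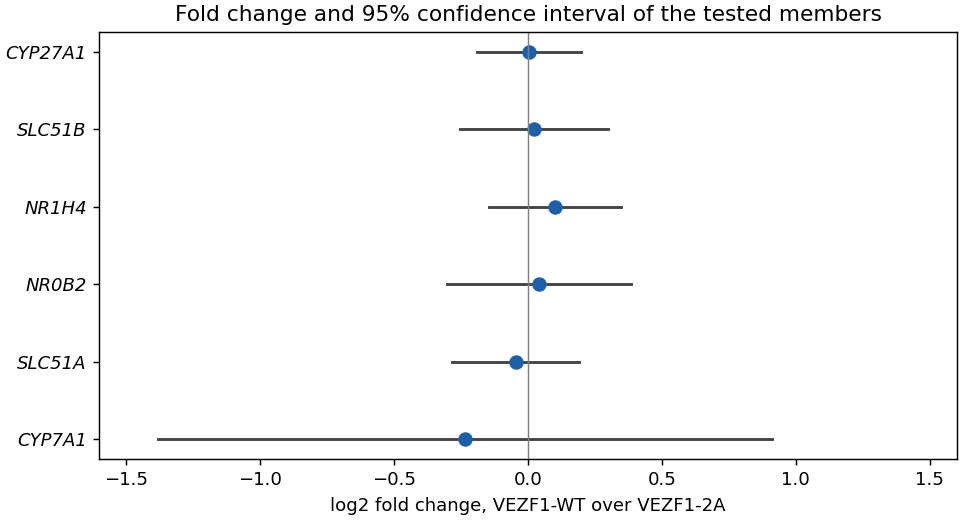
Log2 fold change of VEZF1-WT over VEZF1-2A (horizontal axis) for the 6 tested members, with points at the edgeR estimate and lines for the 95% confidence interval. Every interval spans 0, and that of CYP7A1, -1.38 to 0.91, is the widest.

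The transporters fell into a pair that was expressed and a pair that was almost absent. SLC51A and SLC51B encode the alpha and beta subunits that must assemble to export bile acids across the basolateral membrane. SLC51A had 369, 285 and 382 counts with VEZF1-WT against 239, 303 and 249 with VEZF1-2A, or 7.79, 7.99 and 6.77 CPM against 8.19, 7.56 and 7.50 CPM. Its values were the tightest of all members, with a coefficient of variation of 6.50% over the 6 libraries. The fold was 0.968 with a 95% interval of 0.821 to 1.14 (edgeR p = 0.675, exact permutation p = 0.8). On chromosome 3, from 196211487 to 196243178, 389 of its exon bases (7.39%) are shared with PCYT1A on the opposite strand, which had 3065 to 5440 counts per library, so without a known strand setting its level is uncertain.

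SLC51B, on chromosome 15 from 65045387 to 65053397, had 471, 331 and 534 counts with VEZF1-WT against 323, 378 and 260 with VEZF1-2A, or 9.94, 9.28 and 9.47 CPM against 11.1, 9.43 and 7.84 CPM. Both the highest and the lowest library belonged to VEZF1-2A, where the SD was 1.62 CPM against 0.340 CPM in VEZF1-WT. The fold was 1.01 (95% interval 0.838 to 1.23, edgeR p = 0.872, exact permutation p = 0.8). It shares 61 exon bases with RASL12 on the opposite strand, which had 0 to 5 counts per library. Per length, the beta subunit exceeded the alpha subunit in each of the 6 libraries, by 7.27, 6.62 and 7.96 times with VEZF1-WT against 7.70, 7.11 and 5.95 times with VEZF1-2A, so the groups did not separate by this ratio. The exon length used for SLC51A, 5263 bases, joins the exons of all its transcripts and lowers its TPM where shorter forms are made, while 924 bases were used for SLC51B.

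ABCB11 (chromosome 2, 168915498 to 169031324, minus strand), the canalicular pump for bile salts, had 8, 6 and 4 counts with VEZF1-WT against 8, 10 and 4 with VEZF1-2A. In CPM the values were 0.169, 0.168 and 0.0709 against 0.274, 0.250 and 0.121, and replicate 3 was the lowest of each group. Summed over a group this is 0.129 CPM (exact Poisson 95% interval 0.0763 to 0.203) for VEZF1-WT and 0.215 CPM (0.135 to 0.326) for VEZF1-2A, intervals that overlap. They take counts as independent, and with 2 counts to a fragment they widen to 0.0588 to 0.244 CPM and 0.107 to 0.385 CPM, in either case for counting error only. The exact permutation test gave p = 0.3. SLC10A1 (chromosome 14, 69775416 to 69797241, minus strand), the sodium-dependent uptake carrier, had 0, 4 and 4 counts with VEZF1-WT against 0, 1 and 4 with VEZF1-2A, 13 counts in all, and its summed levels of 0.0572 CPM (0.0247 to 0.113) and 0.0489 CPM (0.0159 to 0.114, wider still with 2 counts to a fragment) were not distinguishable at this depth.

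**Figure D3:**
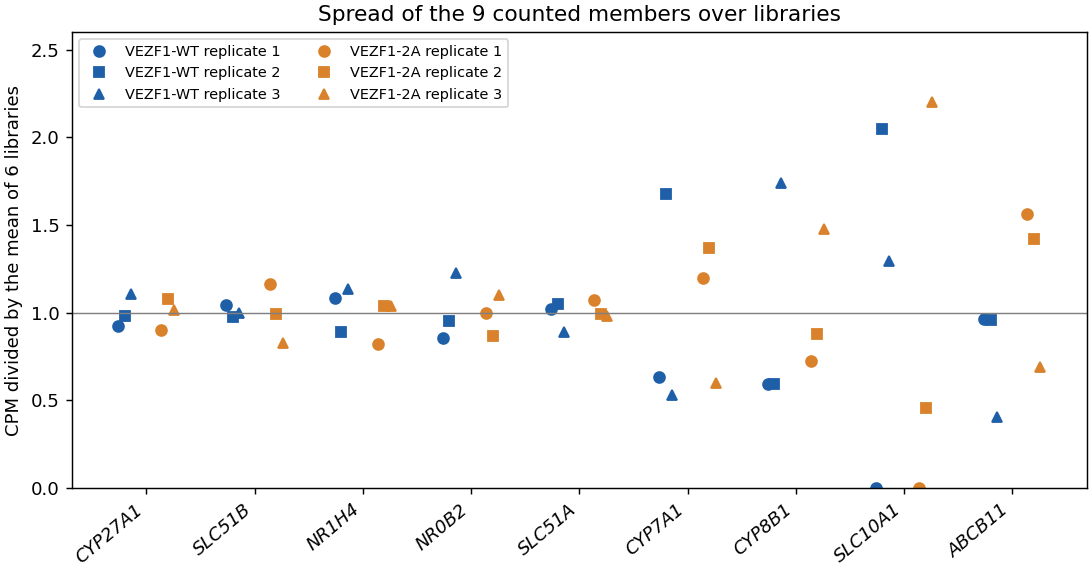
CPM of the 9 members with any count, each divided by its mean over the 6 libraries (vertical axis, linear), for VEZF1-WT (blue) and VEZF1-2A (orange) with 1 symbol shape per replicate number. The first 5 genes stay near 1 in all libraries, while CYP7A1, CYP8B1, SLC10A1 and ABCB11, which have few counts, spread widely in both groups.

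The 4 members with few counts had the wider spread over libraries. The coefficient of variation of CPM was 6.50% to 14.3% for CYP27A1, SLC51B, NR1H4, NR0B2 and SLC51A and 43.6% to 99.2% for CYP7A1, CYP8B1, ABCB11 and SLC10A1. No library was the highest or the lowest throughout. VEZF1-WT replicate 3 was highest for CYP8B1, CYP27A1, NR1H4 and NR0B2 and lowest for CYP7A1, SLC51A and ABCB11, and VEZF1-2A replicate 1 was highest for SLC51A, SLC51B and ABCB11 and lowest for CYP27A1 and NR1H4. Among 8842 genes with a mean of at least 10 CPM, those whose log2 CPM followed CYP27A1 most closely over the 6 libraries were AMBP, CYBA and ADIPOR1 (Pearson r of 0.996, 0.991 and 0.990). For NR1H4 they were LAMTOR4, ALAD and EMG1 (0.989, 0.987 and 0.986), and for SLC51B they were RTEL1, ZBED6CL and NDUFAF4 (0.991, 0.979 and 0.979). With 6 libraries and so many genes such values are a description only, and 72 to 124 genes exceeded 0.9 for each of the 3 members.

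FXR binds DNA as a pair with RXR, typically at an inverted repeat of the letters AGGTCA with 1 base between both copies. The 250 bases before the start were at hand for 6 members, ABCB11, CYP27A1, SLC51A, NR1H4, SLC10A1 and SLC51B (RefSeq, GRCh38.p14). The exact repeat was in 0 of these and in 0 of 35116 promoters, searched on both strands. The single copy AGGTCA was in 3 of the 6 (NR1H4, SLC10A1 and SLC51B) and in 12.1% of all promoters. The best partial match to the repeat had 10 of its 12 fixed letters in ABCB11, SLC10A1 and SLC51B, as in 0.945% of all promoters, and 7 or 8 in the other 3. The 160 bases before the start of ABCB11, SLC10A1 and SLC51B are given 5′ to 3′ on the strand of the gene, with the best partial match in capitals. Capitals mark only the stretch with the most matching letters. Stretches with fewer matching letters were not marked, so the capitals do not show where FXR binds. The genes were at 26.0 TPM (SLC51B), 0.0683 TPM (SLC10A1) and 0.0578 TPM (ABCB11), and whether the matches bear on these levels was not tested. The windows are chr2:169031325-169031484 (minus), chr14:69797242-69797401 (minus) and chr15:65045227-65045386 (plus).
ABCB11: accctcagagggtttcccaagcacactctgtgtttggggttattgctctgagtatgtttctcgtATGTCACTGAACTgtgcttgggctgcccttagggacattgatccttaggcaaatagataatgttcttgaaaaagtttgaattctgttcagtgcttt
SLC10A1: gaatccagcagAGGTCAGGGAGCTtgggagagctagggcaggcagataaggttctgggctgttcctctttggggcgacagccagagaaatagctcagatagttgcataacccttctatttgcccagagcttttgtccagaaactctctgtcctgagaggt
SLC51B: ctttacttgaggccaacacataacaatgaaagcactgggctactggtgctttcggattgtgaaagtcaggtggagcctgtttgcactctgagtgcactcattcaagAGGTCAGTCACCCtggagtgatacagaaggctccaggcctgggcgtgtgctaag
The match ends 84, 137 and 42 bases before the start, in this order. A match of letters is not a site, and no binding data were used here.

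The 57 other genes of the pathway were placed in 4 lists, and 47 of them had enough counts to be tested. With edgeR, 0 had an adjusted p under 0.05, and 2 (VDR and ICAM1) an unadjusted p under 0.05, against the background of 2.13%, of which VDR is no evidence for the reason given with its values. The count was 4 without VEZF1-WT replicate 3, where the count over all genes was 440 of 19406 tested. It was 6 without VEZF1-2A replicate 3, where the count over all genes went from 408 to 973 of 19883 tested. The other steps of synthesis and conjugation were present, with 10 of 14 genes tested, 5 above and 5 below 0 and a median log2 fold change of 0.00 (0.00 over all genes, 0.01 over the 6 members). HSD17B4, a peroxisomal enzyme of side-chain shortening, had the highest level of this list at 52.7 TPM and a log2 fold change of 0.03 (SE 0.08). The extremes were AKR1D1, the steroid 5-beta-reductase, at -0.19 (SE 0.21) and SLC27A5, a bile acid CoA ligase, at 0.07 (SE 0.20), neither past the test. CYP7B1, CYP39A1, CYP46A1 and CH25H, other sterol hydroxylases, had too few counts. CYP39A1, named here after its values were seen, had 12, 4 and 20 counts with VEZF1-WT against 2, 2 and 4 with VEZF1-2A, and the groups overlapped (0.112 CPM in VEZF1-WT replicate 2, 0.121 CPM in VEZF1-2A replicate 3).

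In bile acid and lipid transport 11 of 15 genes were tested, 5 above and 6 below 0, with a median of -0.01 and a range from -0.08 (ABCC3, SE 0.17) to 0.11 (SLCO2B1, SE 0.12). In contrast to ABCB11, the canalicular export pump MRP2 (ABCC2) was at 106.9 TPM and at 328 ± 21.1 CPM in VEZF1-WT against 335 ± 35.5 CPM in VEZF1-2A. Of the OATP uptake carriers, SLCO1B1 was at 0 in every library and SLCO1B3 at 0 to 4 counts, whereas SLCO2B1 had 152 to 380 counts and a mean of 1.47 TPM.

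Among receptors and regulators, 15 of 16 were tested, 6 above and 9 below 0, with a median of -0.01. FGFR4 had the highest level and the largest positive value (log2 fold change 0.11, SE 0.11). VDR, the vitamin D receptor, which also binds lithocholic acid, was the other extreme. It had 10, 6 and 6 counts with VEZF1-WT against 12, 16 and 16 with VEZF1-2A, or 0.211, 0.168 and 0.106 CPM against 0.411, 0.399 and 0.482 CPM, and the groups did not overlap. The log2 fold change was -1.42. VDR reached the CPM of the filter (0.267) in 3 VEZF1-2A libraries and in 0 VEZF1-WT libraries, so it entered the fit only through the group where it was high, and no p is given for it. It was dropped once the counts were halved.

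Of the other FXR targets and detoxification genes 11 of 12 were tested, 5 above and 6 below 0, with a median of -0.04. ICAM1, an adhesion molecule, was at 61.6 ± 4.79 CPM in VEZF1-WT and 69.7 ± 4.71 CPM in VEZF1-2A, with a log2 fold change of -0.18 (SE 0.07, edgeR unadjusted p = 0.0388, exact permutation p = 0.2), and the groups overlapped. Without VEZF1-WT replicate 1, VEZF1-WT replicate 2 or VEZF1-2A replicate 2 its unadjusted edgeR p was 0.124, 0.127 or 0.162, while it was 0.00851 without VEZF1-WT replicate 3 and 0.00908 with the replicate number as a block. FETUB, a liver-secreted protease inhibitor, had the largest positive value, 0.68 (SE 0.38, edgeR, unadjusted p = 0.104), from 20, 32 and 29 counts against 12, 14 and 12. FGB, the fibrinogen beta chain, had the highest level at 306 TPM and varied widely in both groups (561 ± 211 and 508 ± 199 CPM). The groups did not overlap for FETUB, where the nearest libraries were at 0.422 and 0.411 CPM, and for PPARA (11.3 to 12.3 CPM against 12.8 to 13.03 CPM). They also did not for CYP3A4, the drug-metabolising oxidase, which was left untested with 10, 6 and 22 counts against 2, 6 and 2. Its nearest libraries had 6 counts each (0.168 CPM in VEZF1-WT replicate 2, 0.150 CPM in VEZF1-2A replicate 2), so only the scaling to library size separates them. Of the 47 tested genes of the 4 lists 3 had groups that did not overlap, beside 7.38% of all genes tested. Among these 3 is VDR, which passed the filter on low counts only through VEZF1-2A.

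**Figure D4:**
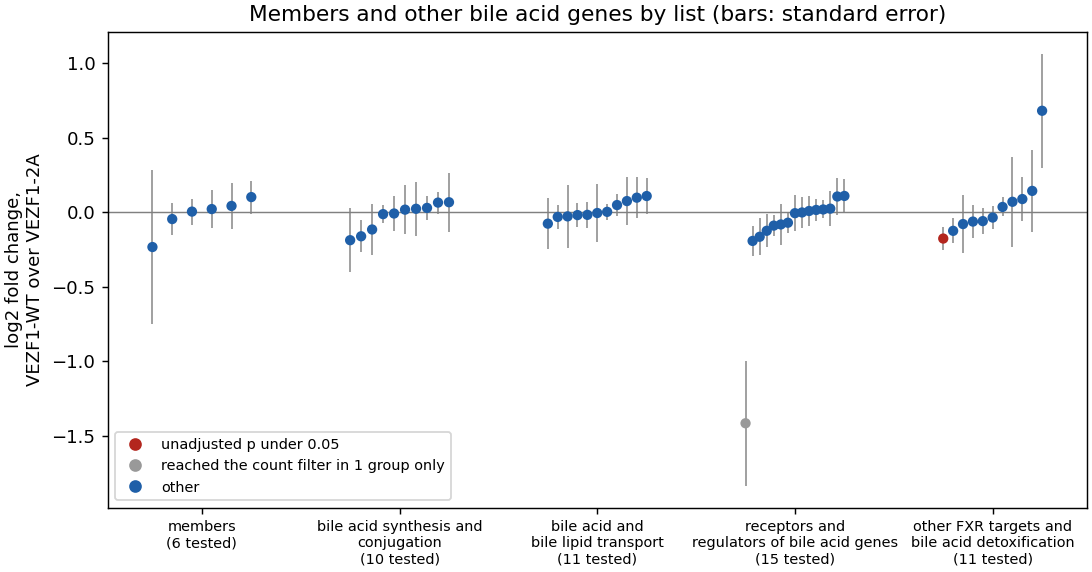
Log2 fold change of VEZF1-WT over VEZF1-2A (vertical axis) for the tested members and the tested genes of the 4 pathway lists, ordered by value within each list, with bars of 1 standard error. ICAM1 at -0.18, in red, had an unadjusted p under 0.05, VDR at -1.42, in grey, reached the filter on low counts in 1 group only, and the other genes lie between -0.23 and 0.68.

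With the replicate number as a block, 0 of the 6 tested members had an unadjusted p under 0.05, where 825 of 19111 genes had one (4.32%), and 6 genes passed the adjusted threshold in place of 0, none of them a member or a gene of the 4 lists. NR1H4 again had the smallest p of the members (edgeR with the block, unadjusted p = 0.258). In the lists the block added FGB (edgeR with the block, unadjusted p = 0.0255) to ICAM1 and VDR. An edgeR fit with no filter on low counts added FGB (unadjusted p = 0.0117), CYP39A1 and CYP3A4, where 896 of 38745 genes had an unadjusted p under 0.05. CYP39A1 and CYP3A4 had few counts, did not pass the filter and were named after their values were seen, so no p is given for them. Adjusted p-values of these list genes were 0.914 or more in edgeR throughout. Among markers of other cell types, CD68 (log2 fold change -0.11, unadjusted p = 0.0427) and the fibroblast collagen COL1A1 (-0.60, unadjusted p = 0.0287) also had an unadjusted p under 0.05 with the block and not without it. COL1A1 was at or below 1 TPM. The other tested markers of its list, ACTA2 (edgeR with the block, unadjusted p = 0.376) and PDGFRB (unadjusted p = 0.142), were not under 0.05. The part of CD68 and COL1A1 in the values of the bile acid genes was not tested.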

How the data were processed

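The authors deposited 1 table of whole-number read counts per gene, without normalization, from mRNA libraries of 6 HepG2 samples. The labels name GRCh38, and the aligner, counting program, annotation release and strand setting are not given in the sources used here. Lines with the broken ANK2 entry (5 of 59613) were left out. CPM were computed with TMM factors, and TPM from the counts and the exon lengths in the table.

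Counts were fitted in R 4.3.3 with edgeR 4.0.16 (filterByExpr with minimum count 10 and minimum total 15, TMM, glmQLFit and glmQLFTest, two-sided, Benjamini-Hochberg adjustment over 19111 genes), with the group as the term, after a test on simulated data. For single genes a two-sided exact permutation test of log2(CPM + 0.1) was added, for which 3 against 3 allow no p below 0.1. SDs are over 3 libraries.

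Named are the 10 members, VEZF1, the genes most like the top member of each role, and of each pathway list those with an unadjusted p under 0.05, the extremes of fold change and the highest level. CYP39A1, CYP3A4, PPARA, KLB and genes given for their overlap or low level were named after their values were seen. The members, lists and promoter motifs were chosen with earlier results of these data known. Summed cell type markers overlapped between the groups, at 1416 to 1973 TPM for biliary, 0.832 to 1.61 for ileal and 23.9 to 31.4 for stellate or fibroblast markers, and 1 marker gene is not reported here.

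Libraries of the same replicate number deviated together over 8842 genes (r = 0.227, 0.360 and 0.756), so the numbers in the labels were also used as a replicate block, although VEZF1-WT replicate 2 and VEZF1-2A replicate 1 correlated at 0.609. Other alternatives were DESeq2 1.42.0, voom in limma 3.58.1, other scalings and filters, halved counts, another prior count, overlapping genes left out and each library left out.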

Additional observations from a re-analysis of the deposited data

How the results depend on the processing

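No member had an unadjusted p under 0.05 in any of the settings tried. The number of genes with an adjusted p under 0.05 was 0 in edgeR and also with voom, with other scalings, with counts halved, with a minimum mean of 1 CPM, with overlapping genes left out and without each library (0 to 0). It was 16 with no filter on low counts, 3 with DESeq2 and 6 with the replicate block. The cause of these differences was not tested. Directions near 0 turned over. CYP27A1 was at -0.00070 with library size alone. Leaving out 1 library at a time gave log2 fold changes from -0.075 to 0.064 for CYP27A1 (negative without VEZF1-WT replicate 3, -0.075, or VEZF1-2A replicate 1, -0.063), -0.87 to 0.076 for CYP7A1 (positive without VEZF1-WT replicate 3, 0.076, or VEZF1-2A replicate 2, 0.026), -0.13 to 0.15 for NR0B2 (negative without VEZF1-WT replicate 3, -0.13, or VEZF1-2A replicate 2, -0.048), -0.091 to 0.026 for SLC51A (positive without VEZF1-WT replicate 3, 0.026) and -0.096 to 0.15 for SLC51B (negative without VEZF1-WT replicate 1, -0.012, or VEZF1-2A replicate 3, -0.096). NR1H4 stayed at or above 0.00. Exons of 3 genes overlapped a member on either strand and of 0 on the same strand. SLC51A and SLC51B could not be fitted with overlapping genes left out, nor CYP7A1 with halved counts or the minimum of 1 CPM. The depth limits CYP7A1, CYP8B1, SLC10A1, ABCB11 and FGF19, for which no bound tighter than the intervals and limits above is given.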
